A study of Homo sapiens with 8 samples.

Results

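Caldesmon, the tropomyosins, the calponins, transgelin and the myosin light chain MYL9 form the regulatory layer of contractile actin filaments, and their mRNAs were followed here in MDA-MB-231, a basal-like line from a human breast cancer, after silencing of HMGA1, an architectural chromatin protein. The members were 10 named genes, CALD1, TPM1, TPM2, TPM3, TPM4, CNN1, CNN2, CNN3, TAGLN and MYL9, and every probe set that the platform annotation assigned to 1 of them alone was taken. This gave 35 of 54613 probe sets, from 9 of the 10 genes. No probe set carried the name of TPM3, which was not analysed here, and the list holds regulators of actin filaments but no actin gene. Of the 8 arrays, 4 came from cells given a control siRNA (siCTRL) and 4 from cells given one against HMGA1 (siHMGA1), each at 100 nM, with RNA taken at 72 h. Both groups are the same cell line, the labels name the siRNA only by its target, and they call the samples of a group biological replicates without saying how the cultures were separated, so the errors measure the spread between these arrays. The sample titles give each array an exp number, used here as its replicate number, and the same numbers occur in both groups. The values are log2 probe set signals after RMA, the Affymetrix procedure that corrects background, equalises the arrays and summarises each probe set. Every log2 fold change gives siHMGA1 relative to siCTRL.

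Tropomyosin is a coiled coil that lies along the actin filament and sets which other proteins can bind to it, and its paralogous genes each give many isoforms through alternative promoters and exons. Caldesmon and calponin bind actin together with tropomyosin and restrain the ATPase of myosin. Transgelin is a small relative of calponin that bundles actin, and MYL9 is the regulatory light chain whose phosphorylation switches on myosin II. In non-muscle cells these proteins are parts of stress fibres, and many of their genes are known targets of serum response factor (SRF), which binds a DNA element called the CArG box.

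The sequences around the start sites of the members differed in base composition, which is shown here because HMGA1 binds AT-rich DNA and SRF binds the CArG box. RefSeq (GRCh38.p14) gave 14 windows, each from 250 bases before to 50 bases after a start site, for 7 of the 9 measured genes, and windows of TAGLN and MYL9 were not used here. The 4 windows of CALD1 held 47.3 to 63.0% A and T, while the median over all 35116 windows of that length was 41.3% (quartiles 32.0 and 53.0%). The window of TPM1 held 21.7% and those of TPM4 held 24.0, 25 and 37.0%. The CArG box was searched by its standard consensus on both strands, and 2 of the 14 windows held a copy, 1 of TPM4 and 1 of CNN2, against 1.29% of all windows. These are matches of letters and do not show binding. Windows are printed for CALD1, TPM1 and TPM4, which carry the main contrasts below, and for CNN2 because of its CArG box. They run 5′ to 3′ in the direction of transcription. The longest run of A and T is in capitals for CALD1 and TPM1, and the CArG box for TPM4 and CNN2. The coordinates are chr7:134745217-134745516 for CALD1, chr15:63048239-63048538 for TPM1, chr19:16067288-16067587 for TPM4 and chr19:1026358-1026657 for CNN2, each on the plus strand. The CALD1 window is the richest in A and T of its 4, and the TPM4 window is the 1 of 3 with a CArG box.
CALD1: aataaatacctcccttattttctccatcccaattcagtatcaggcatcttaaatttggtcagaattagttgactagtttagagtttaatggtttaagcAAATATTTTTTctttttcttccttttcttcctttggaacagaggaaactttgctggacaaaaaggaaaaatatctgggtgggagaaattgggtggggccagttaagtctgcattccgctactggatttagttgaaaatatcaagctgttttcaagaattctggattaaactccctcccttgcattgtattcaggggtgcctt
TPM1: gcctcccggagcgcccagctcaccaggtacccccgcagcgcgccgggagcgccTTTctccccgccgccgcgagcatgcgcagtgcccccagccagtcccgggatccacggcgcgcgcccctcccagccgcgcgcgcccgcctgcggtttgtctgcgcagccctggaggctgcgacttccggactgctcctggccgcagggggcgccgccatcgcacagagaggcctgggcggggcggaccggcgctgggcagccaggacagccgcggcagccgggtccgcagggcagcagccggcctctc
TPM4: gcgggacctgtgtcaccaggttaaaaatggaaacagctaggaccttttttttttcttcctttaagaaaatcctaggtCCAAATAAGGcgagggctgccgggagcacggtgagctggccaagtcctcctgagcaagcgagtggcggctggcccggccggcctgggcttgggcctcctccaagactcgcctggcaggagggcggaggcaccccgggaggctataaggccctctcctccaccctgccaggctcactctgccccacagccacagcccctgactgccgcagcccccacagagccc
CNN2: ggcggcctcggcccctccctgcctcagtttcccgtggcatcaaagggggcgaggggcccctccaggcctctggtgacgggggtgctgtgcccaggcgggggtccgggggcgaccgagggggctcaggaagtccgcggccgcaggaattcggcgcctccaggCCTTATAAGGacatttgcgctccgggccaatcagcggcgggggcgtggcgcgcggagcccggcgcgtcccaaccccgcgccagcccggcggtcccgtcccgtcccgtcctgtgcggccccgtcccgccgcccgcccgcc
The CALD1 window holds an unbroken run of 11 A and T bases, whereas the longest such run in the TPM1 window is 3 bases. That of the TPM4 window is 10 bases, the other 3 CALD1 windows hold runs of 7 to 10, and the median over all windows is 6. The CArG box of TPM4 begins 173 bases before its start site and that of CNN2 begins 89 bases before it.

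The targeted gene was lower in every siHMGA1 array. On its brighter probe set, the log2 signal of HMGA1 was 12.62, 12.84, 12.69 and 12.85 in siCTRL and 10.11, 10.37, 10.29 and 10.57 in siHMGA1, which left 18.7% of the control signal (log2 fold change -2.42 with standard error 0.0981, limma adjusted p = 5.2e-08). Its dimmer probe set, 210457_x_at, also fell, but to 53.5% of the control signal (log2 fold change -0.90, standard error 0.154). Array medians lay between 6.07 and 6.12, so a probe set with a mean under 6 is called dim here. A mean above this line does not by itself show expression, since the leukocyte marker CD14 had 6.83 and the fibroblast marker PDGFRB 6.80. All 5 genes listed as expressed in these cells (VIM, CD44, KRT18, AXL and MSN) had means between 12.4 and 14.6. Among them VIM (log2 fold change -0.16) and MSN (-0.34) were called lower and AXL (0.19) higher, while CD44 and KRT18 were not called. Of the 4 genes listed as at or near background, ESR1, PGR and CDH1 had means of at most 6.47, but ERBB3 had 8.06 and a log2 fold change of 1.31, which goes against that listing. The summed linear signal of 6 smooth muscle markers was 322 to 367 in siCTRL and 356 to 384 in siHMGA1, and none of the 6 was called. For 6 fibroblast markers, of which COL1A1 and LUM were called higher, the sum was 801 to 969 and 1018 to 1136. Of 4 leukocyte markers, PTPRC was called higher and LYZ lower, and the sum was 543 to 643 and 435 to 489. The part of these markers in the results on the members was not tested.

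The genes were proposed with results of this contrast known, so their changes are a description, with no p. A probe set is called when limma, adjusted over the 54613 probe sets tested, gives it a p under 0.05, and the call serves only to count. Of the 35 probe sets, 6 were called higher (17.1%) and 7 lower (20%), where 11.7% of all probe sets were called higher and 10.4% lower. The 13 called probe sets came from CALD1, TPM1 and TPM4, and no probe set of the other 6 genes was called. In 7 member probe sets every siHMGA1 array lay above every siCTRL array and in 6 every siHMGA1 array lay below, which held for 13.6% and 11.9% of all probe sets. The median log2 fold change over the 35 was 0.01, as it was over all probe sets. The changes are thus split by gene and, within CALD1, by probe set.

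**Figure D1:**
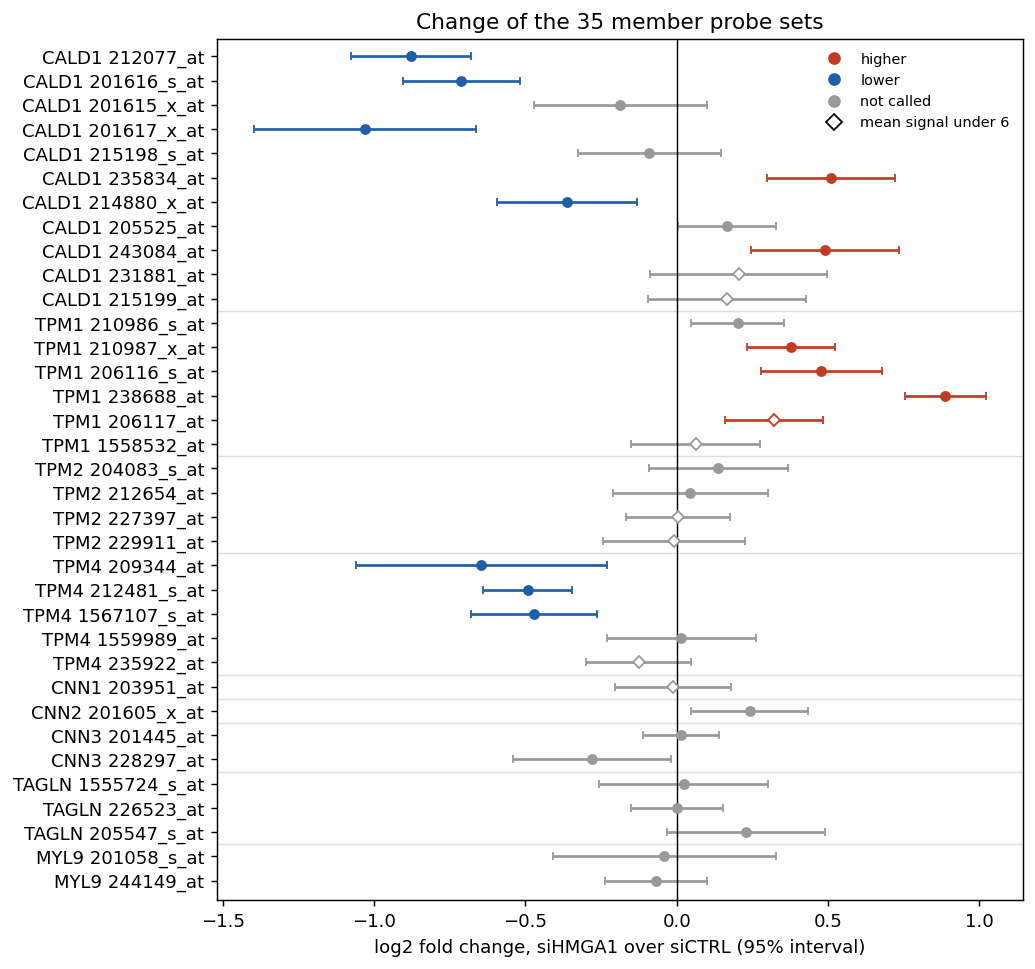
Log2 fold change, siHMGA1 over siCTRL, of the 35 probe sets (points) with 95% intervals from limma, grouped by gene and ordered by mean signal, with colours for the call and open diamonds for means under 6. TPM1 points lie to the right of 0 and the 3 called TPM4 points to the left, while CALD1 has called points on both sides, from -1.03 to 0.51.

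CALD1, which encodes caldesmon, had 11 probe sets, of which 4 fell, 2 rose and 5 were not called. It was the only member called in both directions, among 7 members with at least 2 probe sets. Over all 10523 genes with at least 2 probe sets, 2.52% had probe sets called in both directions. That share is not matched for the number of probe sets per gene, and a gene with more of them has more occasions for both calls. By sign alone, 5 of the 7 members had probe sets on both sides of 0, and so did 50.8% of all such genes.

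The brightest CALD1 probe set, 212077_at, read 11.48, 11.24, 11.49 and 11.29 in siCTRL and 10.30, 10.50, 10.63 and 10.57 in siHMGA1. The groups did not overlap, and the log2 fold change was -0.88 (standard error 0.0904), which left 54.4% of the control signal. The next brightest, 201616_s_at, read 8.99, 9.10, 9.28 and 9.00 in siCTRL and 8.49, 8.28, 8.50 and 8.25 in siHMGA1. All 4 siHMGA1 values again lay below, with a log2 fold change of -0.71 (standard error 0.0880). For 201617_x_at the values were 7.42, 6.78, 7.83 and 7.32 in siCTRL and 6.34, 6.32, 6.38 and 6.20 in siHMGA1. The log2 fold change of -1.03 (standard error 0.168) was the largest fall among the 35, and the siCTRL arrays spread widely here (SD 0.435, against 0.0779 in siHMGA1). The fourth falling probe set, 214880_x_at, read 7.11, 6.56, 6.72 and 6.90 in siCTRL and 6.34, 6.48, 6.54 and 6.48 in siHMGA1. Its highest siHMGA1 value was just under its lowest siCTRL value, and its log2 fold change of -0.36 (standard error 0.106) lost the call when any of 5 arrays was left out, siCTRL replicates 1 and 4 and siHMGA1 replicates 1, 2 and 4 (-0.37 to -0.27).

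In the other direction, CALD1 probe set 235834_at read 6.44, 6.59, 6.59 and 6.13 in siCTRL and 6.93, 6.94, 6.97 and 6.94 in siHMGA1. The siHMGA1 values were all above and close to each other (SD 0.0141), and the log2 fold change was 0.51 (standard error 0.0967). Probe set 243084_at read 5.50, 5.72, 5.77 and 6.11 in siCTRL and 6.27, 6.39, 6.19 and 6.21 in siHMGA1, a log2 fold change of 0.49 (standard error 0.111) with the highest control array just below the siHMGA1 arrays. Both rising probe sets were dimmer than the first 3 falling ones, with means of 6.69 and 6.02, which lie below that of the leukocyte marker CD14 (6.83). The siCTRL mean of 243084_at was 5.78, so it passed the line for dim only through its siHMGA1 arrays (mean 6.27). Taken array by array, the change of 212077_at was 1.39 more negative on the log2 scale than that of 235834_at (difference -1.39, standard error 0.129). This pair was picked with its calls known, and the standard error does not allow for that choice.

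The 5 CALD1 probe sets that were not called had log2 fold changes from -0.19 to 0.20. The brightest of them, 201615_x_at, read 8.08, 8.58, 8.81 and 8.71 in siCTRL and 8.40, 8.39, 8.32 and 8.33 in siHMGA1. Here siCTRL replicate 1 lay below all siHMGA1 arrays and the other siCTRL arrays above them, and without that array the change was called lower, at -0.34. The other 4 were 215198_s_at (-0.09), 205525_at (0.17) and the dim 231881_at (0.20) and 215199_at (0.17), and 231881_at was called higher, at 0.35, without siCTRL replicate 3. The probe sets named _s_at or _x_at may also bind other transcripts, and which part of the CALD1 transcripts each probe set reads is not given in the sources used here. The 3 genes whose brightest probe set ran most like that of CALD1 over the 8 arrays were ERI2 (0.0465), CEP19 (0.0563) and SMS (0.0597). These values are root-mean-square distances from CALD1 on the log2 scale, with each gene centred on its own siCTRL mean.

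**Figure D2:**
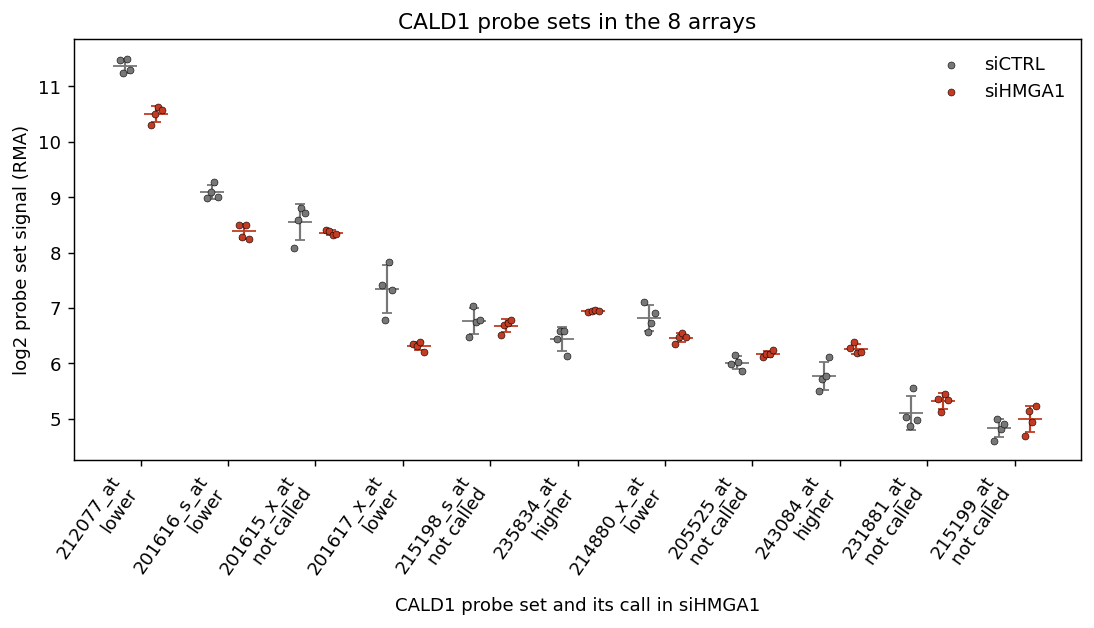
Log2 signal of the 11 CALD1 probe sets in each array (points), with the group mean (horizontal bar) and SD (n = 4 each), ordered by mean signal. The 3 brightest called probe sets, 212077_at, 201616_s_at and 201617_x_at, are lower in siHMGA1, and 235834_at and 243084_at are higher.

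The tropomyosin genes TPM1 and TPM4 moved in opposite directions. TPM1, which encodes alpha-tropomyosin, had 6 probe sets, all with a log2 fold change above 0, and 4 of them rose. TPM4, which encodes a non-muscle tropomyosin of low molecular weight, had 5 probe sets, and 3 of them fell.

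The largest TPM1 change was on 238688_at, which read 6.67, 6.79, 6.77 and 6.75 in siCTRL and 7.69, 7.63, 7.60 and 7.62 in siHMGA1. The groups lay far apart for their spread, with SDs of 0.0547 and 0.0395, and the log2 fold change of 0.89 (standard error 0.0617) was the largest rise among the 35 probe sets, 1.85-fold. Probe set 206116_s_at read 8.82, 9.08, 8.74 and 9.06 in siCTRL and 9.34, 9.45, 9.53 and 9.29 in siHMGA1, a log2 fold change of 0.48 (standard error 0.0918). Probe set 210987_x_at read 10.26, 10.31, 10.17 and 10.27 in siCTRL and 10.61, 10.70, 10.67 and 10.54 in siHMGA1, a log2 fold change of 0.38 (standard error 0.0660). In both, every siHMGA1 array was above every siCTRL array. The brightest TPM1 probe set, 210986_s_at, read 11.87, 11.70, 11.75 and 11.74 in siCTRL and 11.92, 11.89, 12.08 and 11.98 in siHMGA1. Its groups did not overlap either, but the difference was small, with a log2 fold change of 0.20 (standard error 0.0699, 95% interval 0.05 to 0.35), and it was not called. It was called higher, at 0.24, without siCTRL replicate 1. The change of 238688_at exceeded that of 210986_s_at by 0.69 on the log2 scale (standard error 0.0872). This pair sets the largest TPM1 rise against the brightest probe set, and the standard error does not allow for that choice. Of the 2 dim TPM1 probe sets, 206117_at rose by 0.32 and 1558532_at had a log2 fold change of 0.06.

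TPM4 fell most steadily on 212481_s_at, which read 9.89, 9.78, 9.97 and 9.90 in siCTRL and 9.46, 9.32, 9.37 and 9.41 in siHMGA1. All siHMGA1 arrays were lower, with a log2 fold change of -0.49 (standard error 0.0672). Probe set 1567107_s_at read 9.80, 9.68, 10.10 and 9.88 in siCTRL and 9.37, 9.26, 9.53 and 9.43 in siHMGA1, a log2 fold change of -0.47 (standard error 0.0949). The brightest TPM4 probe set, 209344_at, read 10.91, 10.18, 11.38 and 10.81 in siCTRL and 10.31, 10.09, 10.09 and 10.20 in siHMGA1. Here the groups overlapped, since siCTRL replicate 2 was below the highest siHMGA1 array, and the control SD was 0.494. Its log2 fold change of -0.65 (standard error 0.190) lost the call when any of 6 arrays was left out, siCTRL replicates 1, 3 and 4 and siHMGA1 replicates 2, 3 and 4 (-0.66 to -0.46). The values of 1559989_at (0.02) and of the dim 235922_at (-0.13) were not called. Between the brightest probe sets of both genes, the change of TPM1 exceeded that of TPM4 by 0.85 on the log2 scale (standard error 0.249).

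TPM2, which encodes beta-tropomyosin, had no called probe set. Its brightest, 204083_s_at, read 6.99, 7.27, 7.39 and 7.33 in siCTRL and 7.17, 7.47, 7.35 and 7.55 in siHMGA1, and the groups overlapped. The log2 fold change was 0.14 (standard error 0.105, 95% interval -0.09 to 0.37). The other 3 TPM2 probe sets had log2 fold changes of 0.04, 0.00 and -0.01, and 2 of them were dim.

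**Figure D3:**
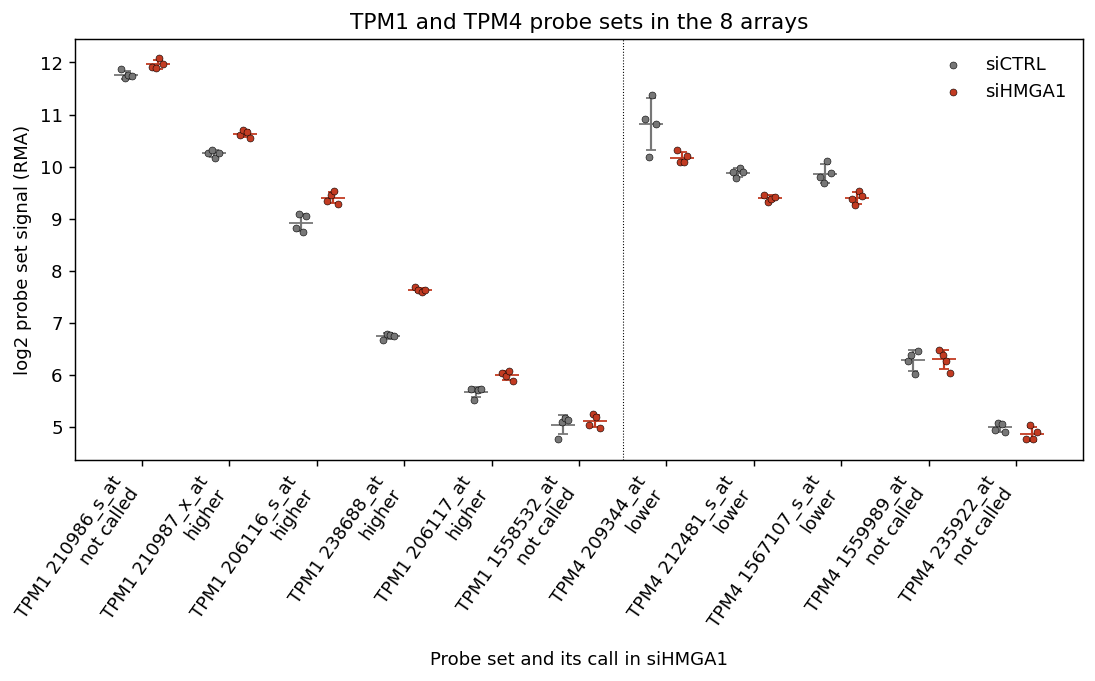
Log2 signal of the 6 TPM1 and 5 TPM4 probe sets in each array (points), with the group mean (horizontal bar) and SD (n = 4 each), ordered by mean signal within each gene. The siHMGA1 arrays lie above the siCTRL arrays on 5 TPM1 probe sets and below them on 2 TPM4 probe sets, with siCTRL replicate 2 overlapping on 209344_at.

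The calponins were not called. CNN3, the acidic calponin of non-muscle cells, was bright and nearly flat on 201445_at, which read 12.33, 12.32, 12.36 and 12.38 in siCTRL and 12.34, 12.38, 12.36 and 12.37 in siHMGA1. Its log2 fold change was 0.01 with a 95% interval of -0.11 to 0.14, so a change as large as that of TPM1 or TPM4 on their called probe sets lies outside this interval. The other CNN3 probe set, 228297_at, read 10.95, 10.41, 10.52 and 10.58 in siCTRL and 10.51, 10.10, 10.30 and 10.43 in siHMGA1. The groups overlapped, and the log2 fold change was -0.28 (95% interval -0.54 to -0.02). CNN2 read 8.36, 8.69, 8.43 and 8.67 in siCTRL and 8.69, 8.90, 8.75 and 8.78 in siHMGA1 on its single probe set, a log2 fold change of 0.24 (95% interval 0.05 to 0.43). The lowest siHMGA1 value met the highest siCTRL value, and without siCTRL replicate 2 CNN2 was called higher, at 0.29. CNN1, the calponin of smooth muscle, was dim in both groups, with means of 4.76 ± 0.116 and 4.75 ± 0.147 (SD, n = 4 each).

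TAGLN, whose product is best known from smooth muscle, had 3 probe sets of similar brightness, and none was called. The brightest, 1555724_s_at, read 6.69, 7.36, 6.91 and 7.17 in siCTRL and 6.95, 7.22, 7.00 and 7.04 in siHMGA1, a log2 fold change of 0.02 (95% interval -0.26 to 0.30). The siHMGA1 values lay within the control range. Probe set 226523_at had the narrowest interval, -0.15 to 0.15 around 0.00, and 205547_s_at had a log2 fold change of 0.23 (95% interval -0.03 to 0.49).

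MYL9 read 8.88, 9.53, 9.25 and 9.47 in siCTRL and 8.88, 9.60, 9.05 and 9.45 in siHMGA1 on 201058_s_at. The 2 groups covered nearly the same range, and the log2 fold change was -0.04 (95% interval -0.41 to 0.33). Its dimmer probe set, 244149_at, had a log2 fold change of -0.07 (95% interval -0.24 to 0.10). On 201058_s_at the arrays numbered 2 and 4 were above those numbered 1 and 3 in both groups. The same held for TAGLN on 1555724_s_at and for CNN2, but not for either CNN3 probe set. In all, 5 of the 35 probe sets had this order, CALD1 215199_at and TPM2 212654_at being the others, and so did 5.60% of all probe sets. This order was noticed after the values were seen, and its part in the results was not tested.

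**Figure D4:**
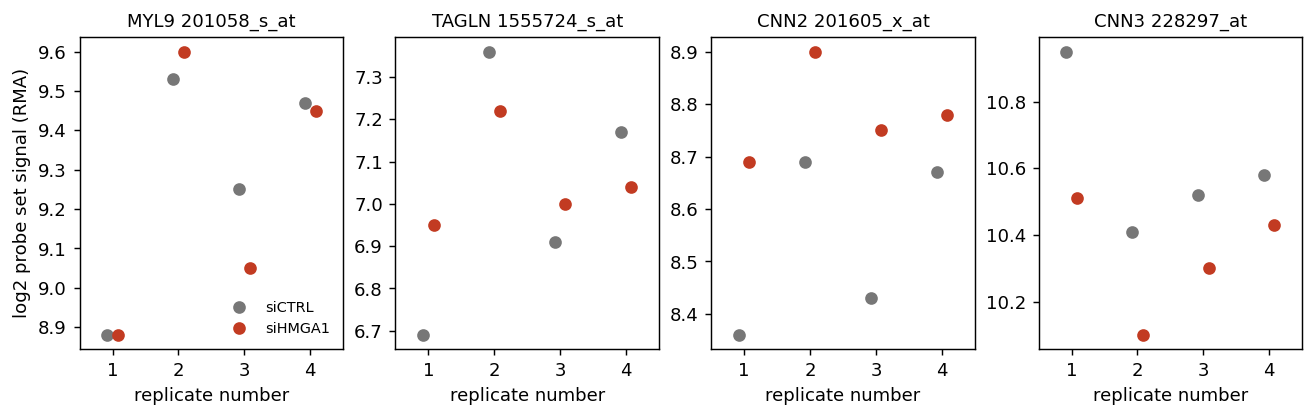
Log2 signal of MYL9, TAGLN, CNN2 and CNN3 probe sets in each array by the replicate number of its label, with siCTRL in grey and siHMGA1 in red (slightly offset) and a separate vertical scale in each panel that does not start at 0. Arrays 2 and 4 are above arrays 1 and 3 in both groups for MYL9, TAGLN and CNN2, and not for CNN3.

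The members were set beside 78 other genes of the contractile actin apparatus, listed by role, of which 70 had a probe set with a single gene name. Each gene was taken through its brightest probe set and tested with limma over 19775 genes, with Benjamini and Hochberg adjustment. This list too was drawn up with earlier results of these data known, so its adjusted p values describe the contrast and are not independent evidence. Of the 70, 12 were called higher and 15 lower, and the median log2 fold change was 0.05. Among all genes, 15.8% were called higher and 14.7% lower.

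None of the 5 measured actin genes was called, although ACTA2 and ACTG2 were called higher, at 0.24 and 0.28, when the arrays were centred on housekeeping genes. ACTB, the cytoplasmic beta-actin, was very bright at 14.76 ± 0.0313 in siCTRL and 14.76 ± 0.0750 in siHMGA1 (SD, n = 4 each), a level unchanged to 2 decimals. The log2 fold change was 0.15 for the smooth muscle actin ACTA2 (adjusted p = 0.112) and 0.19 for the dim ACTG2 (adjusted p = 0.0842), and that of the dim ACTA1 and ACTC1 was -0.10 and 0.09. ACTG1 had no probe set named for it alone. Of 8 myosin II chains, MYH10, the heavy chain of non-muscle myosin IIB, fell from 11.09 ± 0.0297 to 10.19 ± 0.127 (SD, n = 4 each), or by 0.91 on the log2 scale (standard error 0.0690, limma adjusted p = 1.78e-06). Its other probe set also fell, with a log2 fold change of -0.53. The light chain MYL12A, a close relative of MYL9, rose by 0.18 (adjusted p = 0.0258), and 3 of its 4 probe sets were called higher. The brightest lost the call without siCTRL replicate 2 or 4 or siHMGA1 replicate 2 or 3 (0.16 to 0.18), and with cyclic loess (0.15).

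Of 14 measured regulators of myosin light chain phosphorylation, 2 were higher and 3 lower. The GTPase RHOB and the kinase CDC42BPA rose by 0.49 and 0.47 on the log2 scale (adjusted p = 0.0142 and 9.81e-04). MYLK, the kinase that phosphorylates MYL9, fell by 0.29 (adjusted p = 0.00331), and PPP1R12A, a subunit of the opposing phosphatase, fell by 0.24 (adjusted p = 0.0315), the latter not called without any of 6 arrays (siCTRL replicates 1, 3 and 4 and siHMGA1 replicates 1, 2 and 4, where it was -0.25 to -0.18), nor with centring on housekeeping genes (-0.15), the replicate block or the methods' t-test. Taken as the mean of their probe sets, RHOB and MYLK were no longer called, at 0.10 and -0.08, and RHOB was not called by the methods' t-test. SRF was called higher on its brighter probe set, at 0.22 (adjusted p = 0.0141), and lower on its dimmer one, at -0.27. Its coactivators MRTFA, MRTFB and MYOCD were not called.

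Among 20 measured stress fibre crosslinkers and focal adhesion adaptors, 5 were higher and 7 lower. The falls were led by CSRP2, a LIM protein that binds alpha-actinin, at -0.92 on the log2 scale (adjusted p = 9.43e-06), and by the actin bundler LIMA1, at -0.79 (adjusted p = 8.7e-07). SYNPO, which binds alpha-actinin, rose by 0.67 (adjusted p = 5.09e-05) and the stress fibre scaffold PALLD by 0.57 (adjusted p = 1.13e-05). Only 1 of the 3 SYNPO probe sets was called, and its mean over probe sets was 0.20. Among 19 measured genes of filament ends, severing and turnover, 3 were higher and 4 lower. The capping protein subunit CAPZA1 fell by 1.29 (adjusted p = 7.49e-08) on an _s_at probe set and stood at 0.06 on its other probe set. TAGLN2, the non-muscle relative of TAGLN, fell from 12.67 ± 0.103 to 12.05 ± 0.0342 (SD, n = 4 each), or by 0.62 (adjusted p = 1.79e-05), and the severing protein gene CFL2 fell on all 3 of its probe sets, by 0.54 on the brightest (adjusted p = 2.07e-05). TMOD3, which caps the pointed end of tropomyosin-coated filaments, rose by 0.44 (adjusted p = 7.66e-04).

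**Figure D5:**
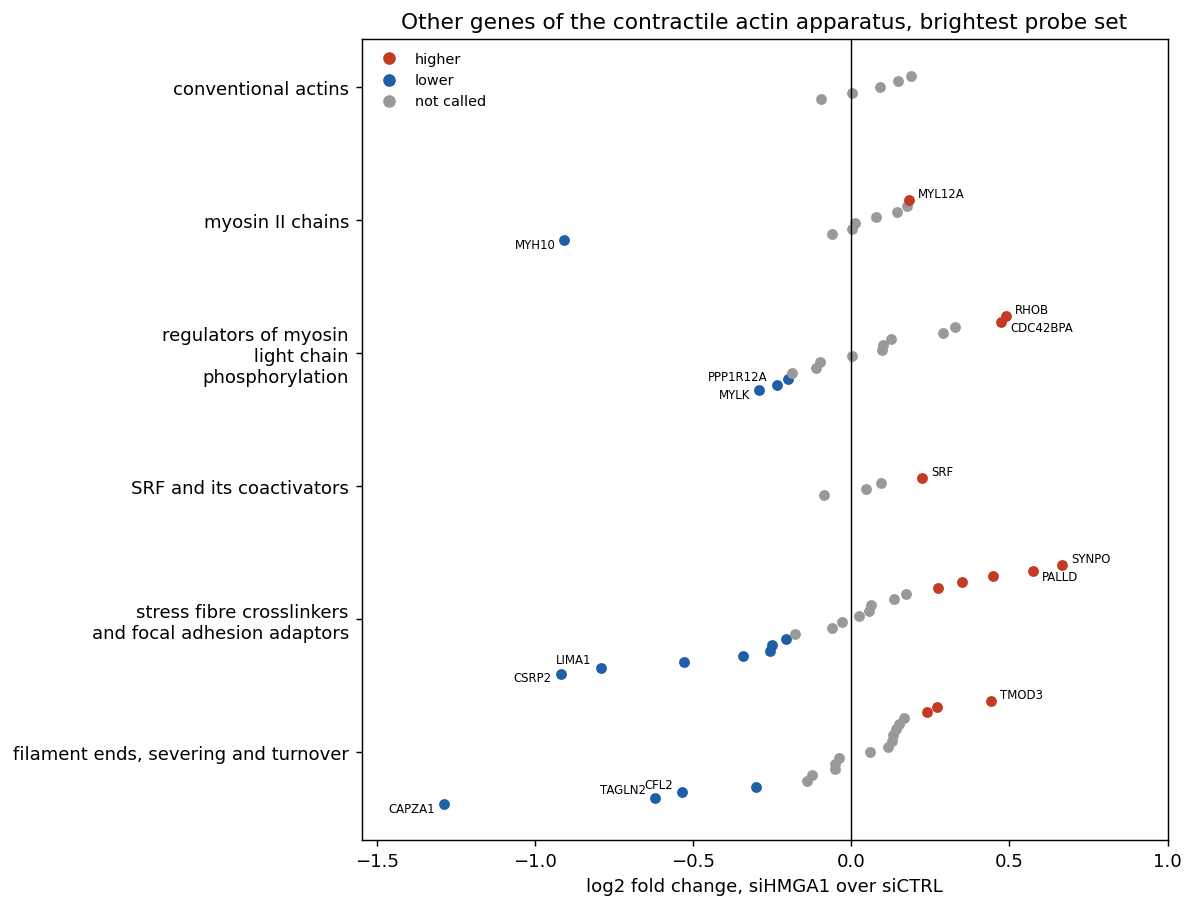
Log2 fold change, siHMGA1 over siCTRL, of 70 other genes of the contractile actin apparatus (points, brightest probe set of each gene), by role and ordered by size within a role, with colours for the call from limma over all genes. MYH10, CSRP2, LIMA1 and CAPZA1 lie farthest to the left and SYNPO and PALLD farthest to the right.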

How the data were processed

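RNA was measured on 8 Affymetrix hgu133plus2 arrays. The authors deposited log2 signals per probe set, made by RMA with the Affymetrix Expression Console, R and Bioconductor. RMA and affy stand in the submitters' notes with no version. RMA gives the arrays a common distribution, so that a shift of most transcripts would be removed. No reads stand behind a signal, and the number of arrays limits the precision. Probe sets were named by the platform annotation with RefSeq symbols. The file held 54675 probe sets, among them 62 controls left out, 41091 with a single gene, 1801 with several, not assigned, and 11721 with no name here. Groups came from the sample titles. The test was limma (version 3.58.1, R 4.3.3) with Benjamini and Hochberg adjustment over 54613 probe sets or, for the other genes, over 19775 genes through the probe set with the highest mean. It was tried on simulated data with independent noise and few changed probe sets, which does not cover effects shared between arrays. A call is an adjusted p under 0.05, and the study's thresholds (adjusted p below 1e-04, log2 fold change beyond 1.4) were an alternative. Intervals are 95% intervals from limma.

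The members and the gene lists were chosen with earlier results of these data known. Member probe sets with a mean of at least 6 that were called, and the brightest of each gene, are given by array unless the gene was dim. Of the other genes, up to 3 per role with the largest called change, up to 1 in the opposite direction and all actins are named. The alternatives were the replicate block, cyclic loess, centring on 9 measured housekeeping genes, a mean of at least 6, a trended and robust fit, array weights, the methods' t-test, each array left out, other thresholds, no _s_at or _x_at probe sets and the mean of probe sets. The methods' t-test is the Student's t-test named in the study's general statistics, while the study tested its arrays with limma.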

Additional observations from a re-analysis of the deposited data

Results flagged for a closer look

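In 4 of 114 groups of 4 arrays, 1 array lay far from the other 3 for the range of the group. Chance flags about 1 in 20 such groups. TPM1 probe set 206117_at read 5.52 in siCTRL replicate 2, where the other 3 control arrays read 5.70 to 5.73. TPM2 probe set 227397_at read 5.84 in siHMGA1 replicate 1, against 5.59 to 5.62. In siCTRL replicate 3, ACTG2 read 5.61 against 5.86 to 5.88, and CFL2 read 11.26 against 11.37 to 11.38.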

How the results depend on the processing

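Member genes with probe sets called in both directions numbered 1 under each alternative run on that count, and no called member probe set changed sign in any alternative. The other thresholds were not run on that count, and at the study's thresholds no member probe set was called in either direction. The counts of 6 member probe sets higher and 7 lower became 2 and 4 beyond a log2 fold change of 0.5 and 0 and 0 at the study's thresholds. Among the 20 member probe sets left without _s_at and _x_at probe sets, 4 were higher and 2 lower. With 1 array left out, 6 to 7 were higher and 5 to 7 lower. Centring on housekeeping genes moved the median of the 35 from 0.01 to 0.10 and that of all probe sets to 0.10. With it, 9 member probe sets were higher and 6 lower, and of the other genes 25 rather than 12 were higher and 10 rather than 15 lower. Of the 9 housekeeping genes, TBP (-0.64) and HPRT1 (-0.34) were themselves called lower and SDHA (0.17) and YWHAZ (0.18) higher, and the mean over the 9 was -0.090. Of the other genes of the contractile actin apparatus, 2 were higher and 7 lower beyond 0.5, and 0 and 0 at the study's thresholds. In the same list, 8 were lower without _s_at and _x_at probe sets and 9 with the mean of probe sets. With 1 array left out, 10 to 14 were higher and 11 to 14 lower.

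ACTB was below 0 with cyclic loess (-0.043), array weights (-0.0026) and the mean of probe sets (-0.0042), and it was -0.018 to 0.035 with 1 array left out, below 0 in 4 of the 8. SRF was -0.022 with the mean of probe sets and CAPZA1 0.059 without _s_at and _x_at probe sets. The brighter of the HMGA1 probe sets kept its direction and call in each alternative that retained it (it is an _s_at probe set), at -2.50 to -2.34 with 1 array left out. The median of the 35 member probe set log2 fold changes was -0.029 to 0.056 with 1 array left out.

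With the replicate number as a block, 7 member probe sets were higher and 8 lower, since CNN2 and CNN3 (228297_at) were then called. Deviations of same-numbered arrays correlated by 0.05, 0.22, 0.07 and -0.14. The highest correlation of each siCTRL array with a siHMGA1 array of another number was 0.14, -0.06, 0.12 and 0.18. The numbers were therefore not taken as pairs. Apart from CNN2 and CNN3, calls changed for 214880_x_at, 243084_at, 201615_x_at, 205525_at and 231881_at of CALD1, 210986_s_at of TPM1 and 209344_at of TPM4. With the methods' t-test, 214880_x_at, 243084_at and 209344_at lost their calls. Centring on housekeeping genes also lost that of 214880_x_at, and the trended and robust fit that of 209344_at. Single arrays decided none of the calls of CALD1 on 212077_at, 201616_s_at, 201617_x_at and 235834_at, of TPM1 on 238688_at or of TPM4 on 212481_s_at. Dim probe sets, 8 of the 35, limit what can be seen of CNN1 and of the smallest CALD1 and TPM2 signals. The 2 rising CALD1 probe sets and the 3 of TAGLN were not dim, but their means were at most 7.04.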
